A study of Mus musculus with 18 samples.

Results

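Cholesterol and fatty acid synthesis genes were followed in UV-irradiated mouse skin, papilloma and carcinoma. The set was chosen by function, from a list of 40 genes that encode the enzymes of cholesterol synthesis, their regulators, and the enzymes that build, elongate, desaturate and esterify fatty acids and waxes. Of these, 39 were found under their own symbol among the 14521 named genes of the table, 21 in the sterol branch and 18 in the fatty acid and wax branch. The remaining gene, Msmo1, was not listed under that symbol and is given apart.

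RNA was sequenced from skin of 6 female SKH-1E mice, an outbred strain that lacks the Hairless gene and is prone to UV-induced skin tumours, after chronic low-dose irradiation under solar simulators that began in young adulthood. Each mouse gave 3 samples, namely irradiated skin without a lesion (CHR), a papilloma or benign outgrowth of the epidermis (PAP), and a squamous cell carcinoma of the skin (SCC), which made 18 libraries with n = 6 in every group. All groups share the strain and the irradiation, and unirradiated skin was not analysed here. The samples were pieces of whole tissue, so that fewer cells of a type and less RNA per cell cannot be told apart.

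Cholesterol is built from acetyl-CoA through mevalonate, squalene and lanosterol, and the genes of this route are switched on together by the transcription factor SREBP-2 (Srebf2) when membranes run low in sterol. Fatty acids are built from the same precursor by acetyl-CoA carboxylase and fatty acid synthase, then lengthened by ELOVL elongases and given double bonds by desaturases. In skin, sebaceous glands turn them into the wax esters and triglycerides of sebum, while keratinocytes use both branches to build the water barrier of the epidermis.

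Promoter sequences are shown for 4 members because the promoters of the branches differed in how often they held the CCAAT box. This short element is bound by the factor NF-Y. Elovl6 and Far2 are shown as members without it, although most members of their branch with a window hold it. A window of 300 bases, from 250 before to 50 after the start of the gene in RefSeq (GRCm38.p6), was matched for 30 of the 39 members. More than 1 start was listed for 5 of them (Dhcr7, Srebf1, Pmvk, Elovl1 and Awat2), and a gene was counted as holding a motif if any of its windows did. Dhcr7 held CCAAT in 1 of 3 windows and Pmvk in 1 of 2. The lines read 5′ to 3′ on the strand of the gene, and capitals mark CCAAT on either strand (ATTGG on the opposite one) and the sterol response element TCACNCCAC.
Hmgcs1 (chr13:119690101-119690400, plus strand): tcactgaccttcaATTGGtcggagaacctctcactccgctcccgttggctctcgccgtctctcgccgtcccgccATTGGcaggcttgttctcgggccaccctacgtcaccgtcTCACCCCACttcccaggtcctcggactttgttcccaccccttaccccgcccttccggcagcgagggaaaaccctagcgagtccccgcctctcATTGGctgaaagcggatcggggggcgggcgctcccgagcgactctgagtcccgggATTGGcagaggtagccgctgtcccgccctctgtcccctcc
Mvk (chr5:114444019-114444318, plus strand): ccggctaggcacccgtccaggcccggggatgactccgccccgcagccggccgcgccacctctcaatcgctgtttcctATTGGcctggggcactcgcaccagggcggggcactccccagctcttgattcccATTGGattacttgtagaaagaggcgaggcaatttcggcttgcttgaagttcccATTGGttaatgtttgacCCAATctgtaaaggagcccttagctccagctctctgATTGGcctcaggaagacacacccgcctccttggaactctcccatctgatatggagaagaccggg
Elovl6 (chr3:129532136-129532435, plus strand): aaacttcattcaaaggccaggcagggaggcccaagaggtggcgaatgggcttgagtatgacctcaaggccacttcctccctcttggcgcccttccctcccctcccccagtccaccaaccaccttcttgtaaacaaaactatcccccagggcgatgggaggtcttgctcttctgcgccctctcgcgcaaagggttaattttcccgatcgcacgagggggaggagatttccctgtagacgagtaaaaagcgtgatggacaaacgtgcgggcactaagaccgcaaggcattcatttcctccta
Far2 (chr6:148047166-148047465, plus strand): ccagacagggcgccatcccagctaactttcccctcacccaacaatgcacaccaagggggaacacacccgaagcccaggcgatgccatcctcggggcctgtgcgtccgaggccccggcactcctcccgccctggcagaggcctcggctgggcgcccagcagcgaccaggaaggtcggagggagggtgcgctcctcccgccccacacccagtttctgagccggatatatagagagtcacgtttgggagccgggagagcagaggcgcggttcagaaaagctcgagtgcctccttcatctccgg
At least 1 CCAAT box stood in the windows of 16 of 17 sterol members (94.1%) and 8 of 13 fatty acid and wax members (61.5%), against 42.0% of 10745 genes of the table and 41.1% of all 27025 genes with a window. Mvk held 5 copies and Hmgcs1 held 4. The GC box GGGCGG, searched on both strands, stood in 16 of 17 sterol members and 8 of 13 of the others, against 65.0% of the genes of the table. Hmgcs1 was the only member with the letters TCACNCCAC, 137 bases before its start, and 1.46% of the genes of the table held them. The E-box CACGTG stood in 4 sterol members and 1 of the others, and TATAAA in none of the 30. Among the members that fell in papilloma and had a window, Elovl6, Far2, Scd3 and Fads2 had no CCAAT box in it. Fasn, Elovl5, Far1, Awat2 and Soat1 had at least 1, as did the sterol genes Pmvk, Dhcr7 and Insig1. Scd1, Elovl3, Fads1 and Dgat2 also fell but had no window. These matches describe letters only.

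The recovered depth of the libraries was 15.4 to 20.97 M reads with a median of 18.9 M. Levels are given as normalised read counts. Log2 fold changes with their SE come from limma on log2(deposited value + 1) and are called at an adjusted p under 0.05. This scale compresses low counts, so a fold of mean normalised counts is given beside it for the members with the largest falls. Between CHR and PAP, 22.8% of all genes were called higher and 28.7% lower. Between PAP and SCC the shares were 4.99% higher and 0.592% lower, and between CHR and SCC they were 15.1% higher and 21.4% lower. The median log2 fold change of all genes was 0.00, -0.02 and -0.02 in these comparisons.

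The fatty acid and wax branch was lower in papilloma, and the sterol branch had calls in both directions. Of 18 fatty acid and wax genes, 13 fell and 1 rose in papilloma vs CHR, with a median log2 fold change of -1.21. In 10 of the 18 every papilloma lay under every CHR sample, which 19.2% of all genes did. Of 21 sterol genes, 3 fell and 2 rose, with a median of -0.10, and in none were the groups apart. In carcinoma vs CHR, 11 fatty acid and wax genes fell and 1 rose (median -0.87). In 8 of the 18 every carcinoma lay under every CHR sample, against 11.2% of all genes. In the same comparison 3 sterol genes fell and none rose (median -0.33). Of the 18 genes, 10 were called lower in both lesions. Fads1, Fads2 and Far1 were called lower in PAP alone and Acaca in SCC alone, and none of these 4 passed the test of the difference between the lesions without the mouse as a block.

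**Figure D1:**
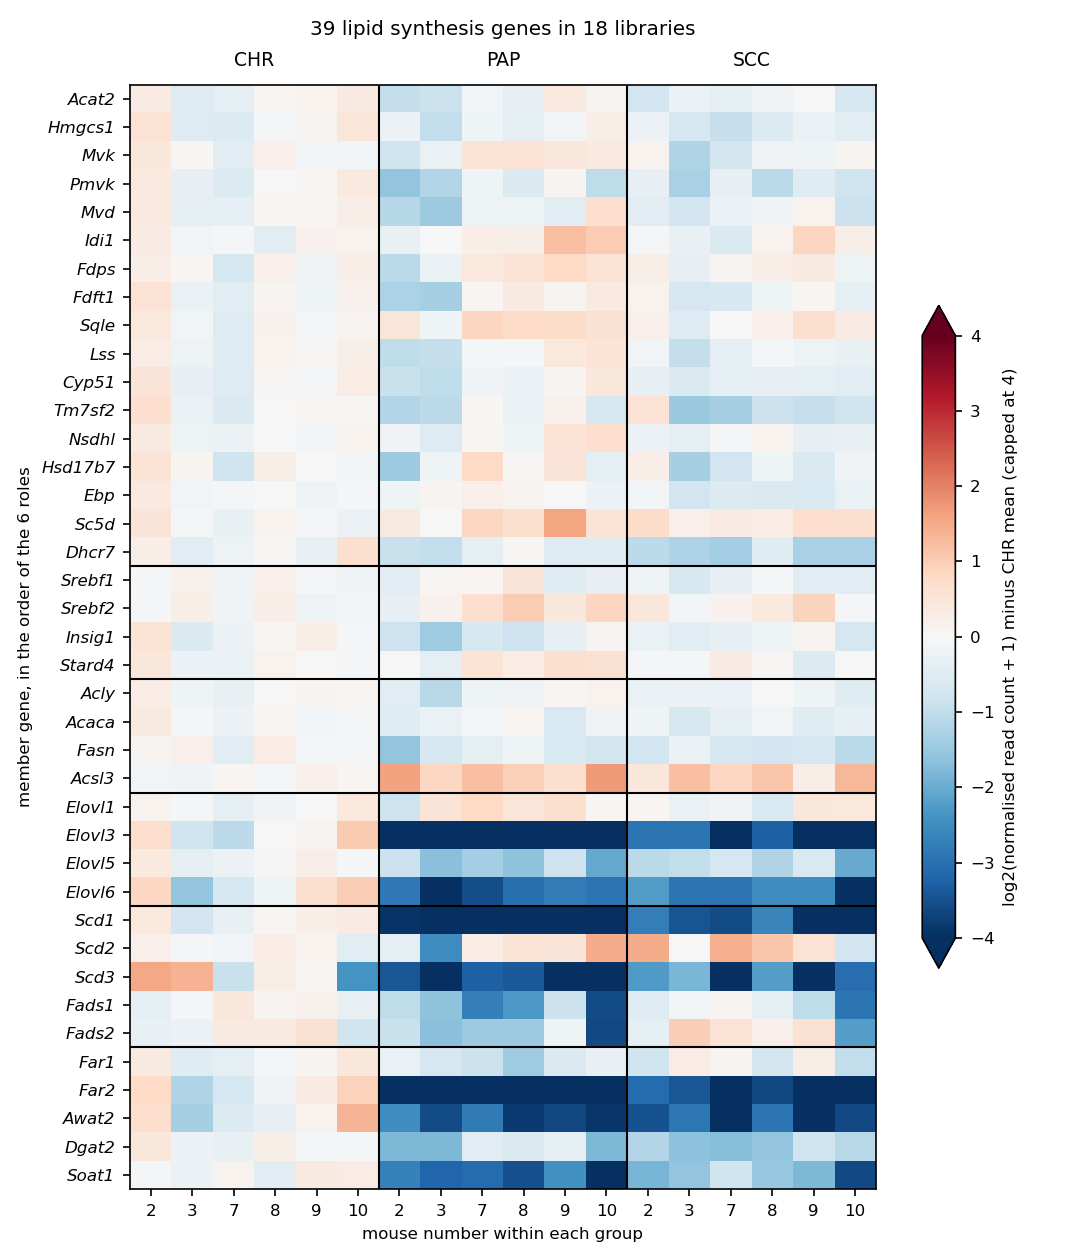
Each row is 1 of the 39 members, in the order of their roles from sterol enzymes to stored esters, and each column is 1 of 18 libraries, with the mouse number below. Colour gives log2(normalised read count + 1) minus the mean of the 6 CHR libraries, capped at 4 in either direction. Elovl3, Elovl6, Scd1, Scd3, Far2, Awat2 and Soat1 are dark blue across PAP, Acsl3 is orange in nearly all lesions, and the sterol rows above the second horizontal line are pale in most libraries.

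Few of the sterol enzymes changed. In papilloma vs CHR, 2 of 17 rose and 2 fell, and in carcinoma vs CHR 3 fell. Sqle (ENSMUSG00000022351.14, GRCm38 chromosome 15, 59315077 to 59331192) encodes squalene epoxidase, which makes the first oxygenated intermediate after squalene. It had 2394 to 4599 normalised reads in CHR (median 3520.2), 3041 to 6309 in PAP (median 5472) and 2402 to 5414 in SCC (median 3986). In 5 of 6 mice the papilloma exceeded the CHR sample, but the groups overlapped. Sqle rose in papilloma vs CHR by 0.53 ± 0.20 (log2 fold change ± SE, limma adjusted p = 0.0315), and its value in carcinoma vs CHR was 0.14 ± 0.20 (adjusted p = 0.607).

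Sc5d, which encodes lathosterol desaturase near the end of the route, had 771 to 1368 normalised reads in CHR (median 916), 953 to 2853 in PAP (median 1442) and 1106 to 1579.7 in SCC (median 1343). It rose in PAP by 0.62 ± 0.20 on the log2 scale (adjusted p = 0.0141, 5 of 6 mice), with the papilloma of mouse 9 far above the rest. In SCC it was higher in 6 of 6 mice (log2 fold change 0.45, limma adjusted p = 0.0791). The rises of Sqle and Sc5d depend on the reference. Centring every library on 10 keratinocyte markers, of which 8 rose in papillomas, moved the median of all genes by -0.84 in papilloma vs CHR and gave log2 fold changes of -0.31 for Sqle and -0.23 for Sc5d.

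Among the sterol genes that fell, Pmvk encodes phosphomevalonate kinase. It had 618 to 1194 normalised reads in CHR (median 922), 303 to 963 in PAP (median 526) and 366 to 719 in SCC (median 585). The papillomas of mice 7 and 9 exceeded their own CHR sample and the other 4 lay below it. The log2 fold change was -0.66 ± 0.24 in papilloma vs CHR (adjusted p = 0.0268) and -0.65 ± 0.24 in carcinoma vs CHR (adjusted p = 0.0390). The call in papilloma was lost without mouse 2, 3, 8 or 10, with adjusted p from 0.0516 to 0.137, and that in carcinoma without mouse 3, 8, 9 or 10, with adjusted p from 0.0534 to 0.127.

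Dhcr7 encodes the reductase of the last step to cholesterol. It was the only sterol gene whose groups were apart, with 1032 to 2167 normalised reads in CHR (median 1325) and 547 to 1000.2 in SCC (median 582), and 703 to 1437 in PAP (median 986). Its log2 fold change was -0.50 ± 0.19 in papilloma vs CHR (adjusted p = 0.0340, 5 of 6 mice) and -1.03 ± 0.19 in carcinoma vs CHR (adjusted p = 0.000474, 6 of 6 mice). Between the lesions it was lower in SCC in 6 of 6 mice, but with an adjusted p of 0.104.

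Ebp, the sterol isomerase before Sc5d, was the only sterol gene called between the lesions. It had 1406 to 2121 normalised reads in CHR (median 1544), 1363 to 1856 in PAP (median 1684) and 957 to 1489.7 in SCC (median 1089). In papilloma vs CHR the log2 fold change was 0.01 ± 0.12, and in carcinoma vs papilloma it was -0.46 ± 0.12 (adjusted p = 0.0409, lower in 5 of 6 mice). Without mouse 3, 7, 8 or 9 the latter value was -0.39, -0.41, -0.42 and -0.44, with adjusted p of 0.169, 0.229, 0.213 and 0.0748, and in limma-voom on recovered reads it was -0.49 with 0.0994. With mouse 3, 7 or 8 left out and in limma-voom, 0 of all 14521 genes were called in this comparison, where 2056 to 3083 had an unadjusted p under 0.05. Centred on keratinocyte markers the value was 0.31. Ebp was also the third sterol gene called lower in carcinoma vs CHR, at -0.45 ± 0.12 (adjusted p = 0.00808, 6 of 6 mice).

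The other 12 sterol enzymes passed the threshold in no comparison, with log2 fold changes in papilloma vs CHR from -0.40 for Mvd to 0.25 for Idi1. Hmgcs1, which makes the precursor of mevalonate and had the highest level per length of the sterol genes (115 ± 36.9 RPKM in CHR, mean ± SD, n = 6, where RPKM stands for recovered reads per kilobase of exon and per M reads of the library), ranged from 6249 to 13629 normalised reads in CHR, 4653 to 11002 in PAP and 4817 to 7842 in SCC. In carcinoma vs CHR it was lower in 6 of 6 mice (log2 fold change -0.51, adjusted p = 0.0727, or 0.0142 with the mouse as a block). Counts of Fdps, Acat2, Fdft1 and Idi1 are uncertain, since 64.1%, 40.7%, 30.7% and 28.6% of the 50-base windows of their transcripts also occur in other genes, among them Gm43738 for Fdps and Acat3 for Acat2. How such reads were assigned was not stated. The row Sc4mol, an older symbol of Msmo1, had log2 fold changes of -0.34 in papilloma vs CHR and -0.67 in carcinoma vs CHR (adjusted p = 0.287 and 0.0513, the latter 0.0191 with the mouse as a block).

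Mean counts of the sterol regulators differed by at most 1.54-fold between groups. Insig1 encodes the membrane protein that retains SREBPs in the endoplasmic reticulum, and it fell in PAP. It had 298 to 659 normalised reads in CHR (median 449.7), 167 to 479 in PAP (median 271) and 278 to 478 in SCC (median 362), a log2 fold change of -0.54 ± 0.19 in papilloma vs CHR (adjusted p = 0.0222, 5 of 6 mice). Srebf2 had 1996 to 2760.3 normalised reads in CHR (median 2168), 1815 to 4622 in PAP (median 3402) and 2113 to 4220.1 in SCC (median 2818), and its log2 fold change of 0.46 ± 0.20 in papilloma vs CHR missed the threshold (adjusted p = 0.0660, higher in 4 of 6 mice). Without the papilloma of mouse 2, its lowest, the value was 0.61 (adjusted p = 0.00833), and centred on keratinocyte markers it was -0.39. Stard4, which carries cholesterol between membranes, had 1899 to 3139 normalised reads in CHR (median 2239), 1776 to 3597 in PAP (median 3094) and 1588 to 2867 in SCC (median 2265), with a log2 fold change of 0.28 ± 0.17 in papilloma vs CHR (adjusted p = 0.189, 4 of 6 mice). Srebf1, whose products drive fatty acid genes, had a log2 fold change of -0.09 in papilloma vs CHR and -0.35 in carcinoma vs CHR, with adjusted p of 0.635 and 0.0771, or 0.0465 for the latter with the mouse as a block.

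Within a group, the same mice were often at the ends of the range for many sterol genes. In CHR, mouse 2 had the highest count of 16 of the 21 genes and mouse 7 the lowest of 15. In PAP the lowest counts were those of mouse 3 (10 genes) and mouse 2 (9 genes), and in SCC mouse 3 was lowest in 14. For sterol genes the median SD on the log2 scale was 0.29 among CHR samples, 0.45 among papillomas and 0.29 among carcinomas, against 0.17, 0.30 and 0.31 over all genes. Leaving out 1 mouse changed the number of sterol calls in papilloma vs CHR from 5 to between 2 and 4, and each of the 5 calls was lost without at least 1 of the mice. In those fits 44.2% to 49.1% of all genes were called. With the mouse as a block the sterol calls were 5 in papilloma vs CHR and rose from 3 to 5 in carcinoma vs CHR. Of all genes, 52.6% and 38.4% were called there. Centred on keratinocyte markers, 16 of 21 were lower and none higher in papilloma vs CHR, where 58.1% of all genes were lower. After quantile normalisation 3 were higher and 2 lower, against 35.8% and 21.6% of all genes.

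In the first steps of fatty acid synthesis, Fasn fell and Acsl3 rose, while Acly did not pass the threshold. Fasn (ENSMUSG00000025153.9, chromosome 11, 120805846 to 120824547), the fatty acid synthase, had 7908 to 13033 normalised reads in CHR (median 10829.9), 3613 to 9463 in PAP (median 6933) and 5085 to 8979.9 in SCC (median 6436). The groups overlapped, and 5 of 6 papillomas and 6 of 6 carcinomas lay below the CHR sample of their mouse. It fell by 0.67 ± 0.19 on the log2 scale in papilloma vs CHR (adjusted p = 0.00714) and by 0.70 ± 0.19 in carcinoma vs CHR (adjusted p = 0.00877).

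Acsl3 (ENSMUSG00000032883.15, chromosome 1, 78657825 to 78707743) encodes a long-chain acyl-CoA synthetase that activates fatty acids for incorporation into lipid droplets. It had 409.9 to 520.3 normalised reads in CHR (median 456), 719 to 1485 in PAP (median 960.2) and 549 to 1156 in SCC (median 896). Every lesion lay above every CHR sample. The log2 fold change was 1.04 ± 0.18 in papilloma vs CHR (adjusted p = 0.000154) and 0.78 ± 0.18 in carcinoma vs CHR (adjusted p = 0.00337), in 6 of 6 mice each, and centred on keratinocyte markers it was 0.20 and 0.70 with adjusted p of 0.612 and 0.243.

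Acly, which supplies cytosolic acetyl-CoA, had 6056 to 9177 normalised reads in CHR (median 7637), 3495 to 8209.9 in PAP (median 6670.0) and 5346 to 7558 in SCC (median 6326), with a log2 fold change of -0.27 ± 0.17 in papilloma vs CHR (adjusted p = 0.190, 4 of 6 mice). Acaca, the carboxylase of the committed step, was called in carcinoma vs CHR at -0.33 ± 0.12 (adjusted p = 0.0488, 6 of 6 mice). That call was lost whichever mouse was left out, with adjusted p from 0.0553 to 0.152, and 49.1% of its 50-base windows also occur in Gm5182.

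**Figure D2:**
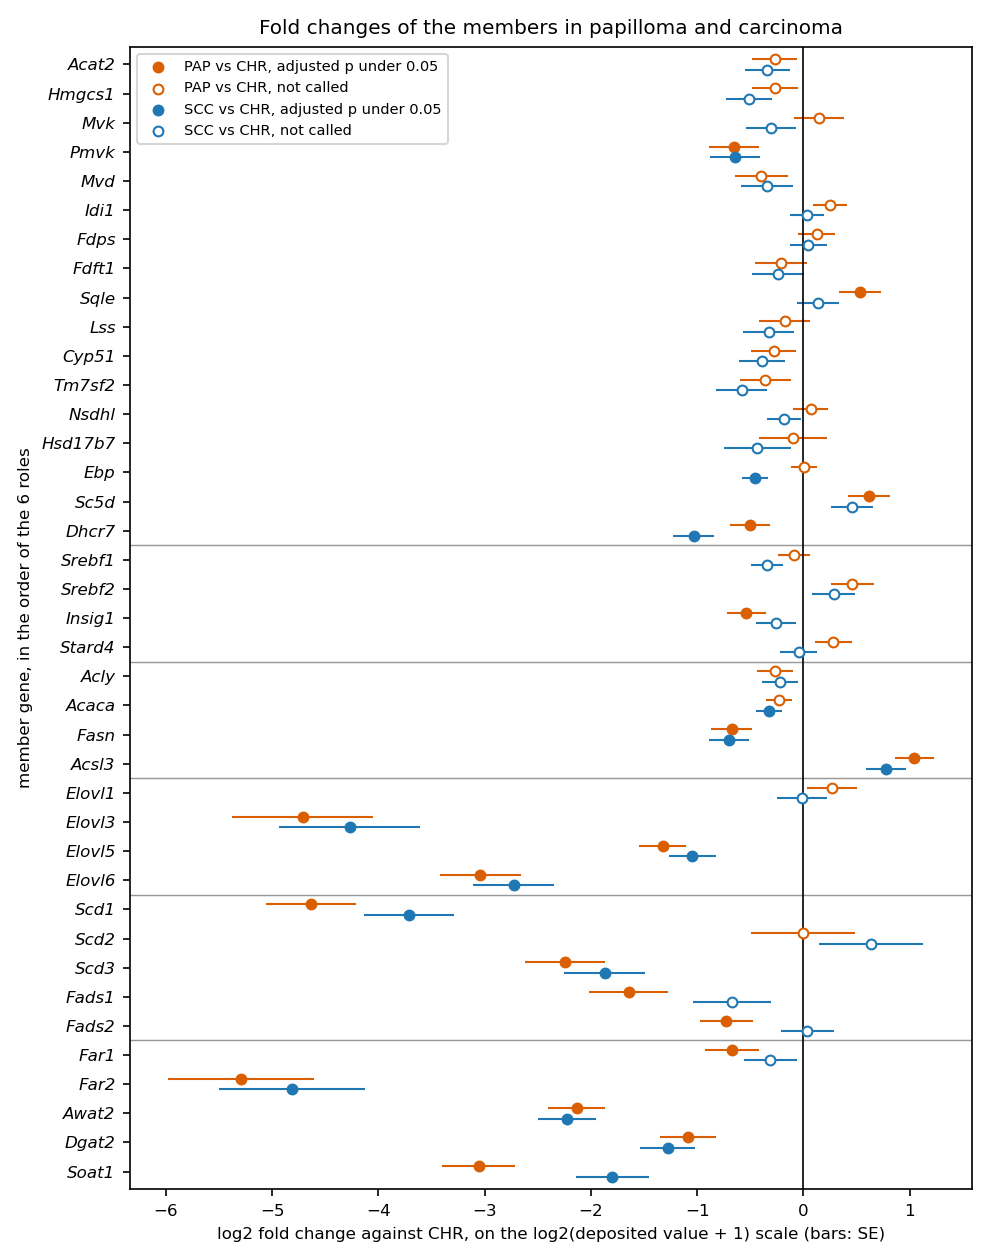
Points give the log2 fold change of each member against CHR on the log2(deposited value + 1) scale, orange for PAP and blue for SCC, with bars of 1 SE. Filled points passed an adjusted p of 0.05. Sterol genes in the upper part lie between -1.03 and 0.62, whereas Elovl3, Scd1 and Far2 lie at -3.71 or lower in both lesions.

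Elongases split by member. Elovl3 (ENSMUSG00000038754.5, chromosome 19, 46131897 to 46135694), which elongates saturated and monounsaturated chains in sebaceous glands, had 1405 to 6054 normalised reads in CHR (median 3051), 0 to 177 in PAP (median 103) and 1.03 to 389 in SCC (median 159). The papillomas of mice 9 and 10 were at 0. The mean was 39.7-fold lower in PAP and 18.3-fold lower in SCC, with log2 fold changes of -4.71 ± 0.66 (adjusted p = 1.53e-05) and -4.27 ± 0.66 (adjusted p = 0.000109), in 6 of 6 mice each.

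Elovl6 (chromosome 3, 129532355 to 129638495), which extends palmitate to stearate, had 1698 to 9989.9 normalised reads in CHR (median 6067), 299 to 722 in PAP (median 628) and 288 to 1075 in SCC (median 774). Every lesion lay under every CHR sample. The mean was 10.6-fold lower in PAP and 8.05-fold lower in SCC, with log2 fold changes of -3.04 ± 0.38 (adjusted p = 4.48e-06) and -2.73 ± 0.38 (adjusted p = 3.83e-05).

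Elovl5, which elongates polyunsaturated chains, fell less. It had 1907 to 3195 normalised reads in CHR (median 2412), 593 to 1369.8 in PAP (median 879.9) and 604 to 1596 in SCC (median 1205), and the groups did not overlap with CHR. Its log2 fold change was -1.32 ± 0.22 in papilloma vs CHR (adjusted p = 8.8e-05, 6 of 6 mice) and -1.05 ± 0.22 in carcinoma vs CHR (adjusted p = 0.00143, 6 of 6 mice). Elovl1, which makes very long saturated chains, was called in no comparison, with log2 fold changes of 0.27 ± 0.23 in papilloma vs CHR and -0.02 ± 0.23 in carcinoma vs CHR.

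Of the desaturases, 4 of 5 fell in PAP and 2 fell in SCC. Scd1 (ENSMUSG00000037071.3, chromosome 19, 44394455 to 44407879), the main stearoyl-CoA desaturase of sebaceous glands, had the highest level per length of all members in CHR, at 514 ± 139 RPKM. It had 25798 to 58656 normalised reads in CHR (median 48979), 818 to 2885 in PAP (median 1874) and 895 to 7057 in SCC (median 3815). The lowest CHR sample was above the highest lesion. The mean was 24.2-fold lower in PAP and 11.3-fold lower in SCC, with log2 fold changes of -4.64 ± 0.43 (adjusted p = 2.57e-07) and -3.71 ± 0.43 (adjusted p = 7.07e-06), in 6 of 6 mice each.

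Scd3, a neighbour of Scd1 in the same gene cluster, was low throughout. It had 43.9 to 679.8 normalised reads in CHR (median 259.9), 2.37 to 23.2 in PAP (median 15.9) and 4.58 to 65.4 in SCC (median 37.3). The CHR samples of mice 2 and 3 were highest and that of mouse 10 was lowest, and SCC overlapped with CHR. The mean was 23.3-fold lower in PAP and 9.85-fold lower in SCC, with log2 fold changes of -2.24 ± 0.38 (adjusted p = 9.5e-05) and -1.87 ± 0.38 (adjusted p = 0.000996) on the compressed scale.

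Scd2, the form found in keratinocytes and many other tissues, did not pass the threshold in any comparison. It had 2884 to 4779 normalised reads in CHR (median 4012), 683 to 10871 in PAP (median 5193) and 2299 to 10875 in SCC (median 7121). The papilloma of mouse 3 lay far below CHR and that of mouse 10 far above it. The log2 fold change was -0.00 ± 0.49 in papilloma vs CHR and 0.63 ± 0.49 in carcinoma vs CHR, with adjusted p of 0.999 and 0.328.

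Scd1 made up 91.3 ± 3.05% (mean ± SD, n = 6) of the summed RPKM of Scd1 to Scd4 in CHR, but 35.6 ± 21.9% in papillomas and 37.5 ± 10.8% in carcinomas. Scd2 made up 7.57 ± 2.22%, 63.8 ± 22.2% and 61.8 ± 11.1%. The lowest Scd1 share in CHR, 85.9%, was above the highest in a lesion, 67.8%. Within PAP the share ranged from 10.05% in mouse 10 to 67.8% in mouse 3. The summed level fell from 560 ± 139.9 RPKM in CHR to 72.7 ± 31.9 in PAP and 122 ± 59.8 in SCC. Only 4.61% of the 50-base windows of Scd1 and 4.01% of those of Scd2 were shared with another gene.

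**Figure D3:**
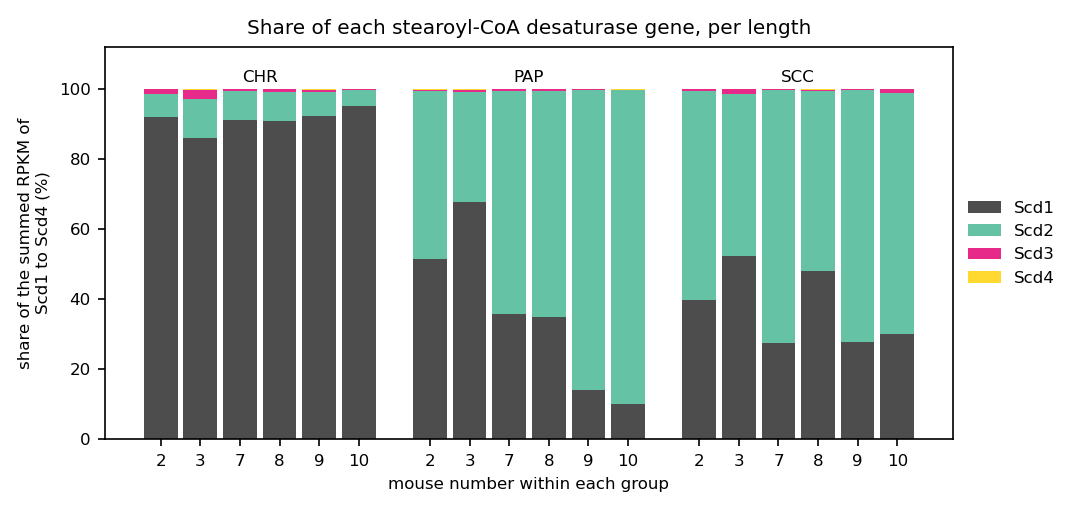
Stacked bars give the share of Scd1, Scd2, Scd3 and Scd4 in their summed RPKM (percent), 1 bar per library, with the mouse number below and the groups CHR, PAP and SCC from left to right. Scd1 holds 85.9% or more of each CHR bar and at most 67.8% of any bar of a lesion.

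The fatty acid desaturases of the polyunsaturated route fell in papilloma. Fads1 had 622 to 1095 normalised reads in CHR (median 810.0), 66.3 to 442 in PAP (median 209.9) and 104 to 852 in SCC (median 588), with PAP apart from CHR. Its log2 fold change was -1.65 ± 0.37 in papilloma vs CHR (adjusted p = 0.00128, 6 of 6 mice), -0.67 ± 0.37 in carcinoma vs CHR (adjusted p = 0.165, 6 of 6 mice) and 0.97 ± 0.37 in carcinoma vs papilloma (adjusted p = 0.122, 5 of 6 mice). Fads2 had 49.2 to 130.4 normalised reads in CHR, 6.15 to 76.4 in PAP (mean 2.52-fold lower) and 17.9 to 172 in SCC, with log2 fold changes of -0.72 ± 0.25 in papilloma vs CHR (adjusted p = 0.0218) and 0.76 ± 0.25 in carcinoma vs papilloma (adjusted p = 0.0764, 6 of 6 mice). With the mouse as a block the latter had an adjusted p of 0.0156. The call of Fads2 in papilloma vs CHR was lost without mouse 7 or mouse 8, with adjusted p of 0.0722 and 0.0775, and after quantile normalisation, at 0.380.

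Genes of fatty alcohols, waxes and stored esters all fell in PAP (5 of 5), and 4 of 5 fell in SCC. Far2 (ENSMUSG00000030303.15, chromosome 6, 148047259 to 148182758), a reductase that makes the fatty alcohols of wax esters, had 2350.4 to 10376 normalised reads in CHR (median 5886), 5.09 to 288 in PAP (median 105) and 3.63 to 639.9 in SCC (median 233). In SCC, mice 2, 3 and 8 had 439.7 to 639.9 reads and mice 7, 9 and 10 had 3.63 to 27.1, and for Elovl3 the same mice had 304 to 389 and 1.03 to 13.6. The mean of Far2 was 57.4-fold lower in PAP and 23.1-fold lower in SCC, with log2 fold changes of -5.29 ± 0.68 (adjusted p = 6.69e-06) and -4.81 ± 0.68 (adjusted p = 4.9e-05), in 6 of 6 mice each.

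Awat2, a wax synthase of the sebaceous gland, had 130.4 to 854 normalised reads in CHR (median 315), 21.7 to 59 in PAP (median 26.4) and 12.9 to 43.9 in SCC (median 27.6). No lesion reached the lowest CHR sample. The mean was 11.9-fold lower in PAP and 13.8-fold lower in SCC, with log2 fold changes of -2.13 ± 0.27 (adjusted p = 5.41e-06) and -2.22 ± 0.27 (adjusted p = 1.15e-05).

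Soat1, which esterifies cholesterol for storage and so joins the 2 branches, was the only fatty acid or wax gene called between the lesions. It had 4327 to 7530.0 normalised reads in CHR (median 6073), 285 to 1112 in PAP (median 679.8) and 482 to 3429 in SCC (median 1844). The groups CHR and PAP were apart, as were CHR and SCC, and PAP overlapped with SCC. Its log2 fold change was -3.06 ± 0.34 in papilloma vs CHR (adjusted p = 1.52e-06), -1.80 ± 0.34 in carcinoma vs CHR (adjusted p = 0.00062) and 1.26 ± 0.34 in carcinoma vs papilloma (adjusted p = 0.0435), each in 6 of 6 mice. Without mouse 2, 3, 7, 8 or 9 the last value was 1.08 to 1.39 with adjusted p from 0.0541 to 0.223, and in limma-voom it was 1.35 with 0.1002. Without mouse 3, 7 or 8 and in limma-voom, no gene of the table was called in this comparison, as given for Ebp.

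Dgat2, which completes triglycerides, fell in both lesions, with log2 fold changes of -1.09 and -1.28 (adjusted p = 0.0022 and 0.00114). Far1 had -0.67 ± 0.25 in papilloma vs CHR (adjusted p = 0.0320) and -0.31 ± 0.25 in carcinoma vs CHR (adjusted p = 0.349), and its call in PAP was lost without mouse 2, 7, 8 or 9, with adjusted p from 0.0512 to 0.104. Of the 14 calls among fatty acid and wax genes in papilloma vs CHR, 12 held whichever mouse was left out, as did 11 of 12 in carcinoma vs CHR.

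**Figure D4:**
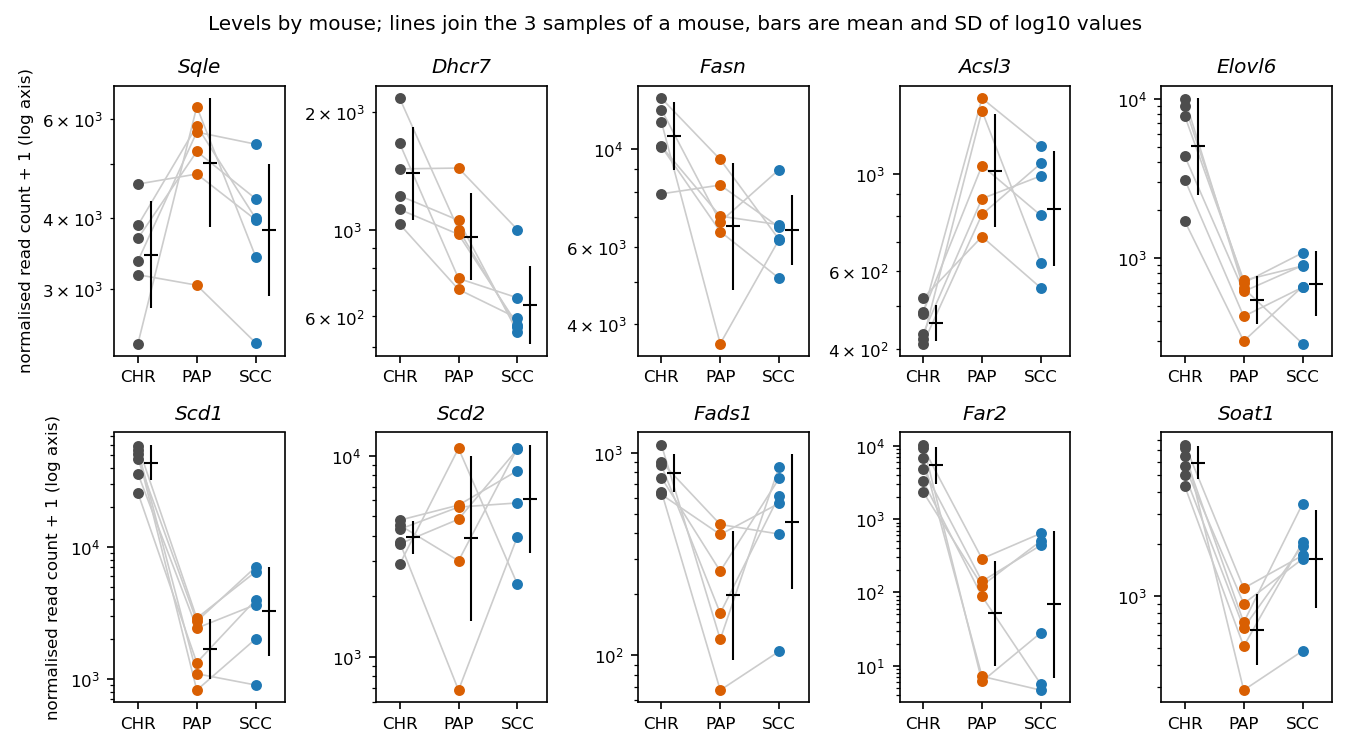
Normalised read count + 1 on a log axis for 10 members, with 1 point per library, grey lines that join the 3 samples of a mouse, and black bars for the mean and SD of the log10 values (n = 6). Scd1, Elovl6, Far2 and Soat1 fall in every mouse from CHR to PAP, Acsl3 rises in every mouse, and the Scd2 points of PAP spread from 683 to 10871.

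In carcinoma vs papilloma, Soat1 was called higher and Ebp lower. These 2 of 39 members are 5.13%, close to the 5.58% of all genes called in this comparison, and 6 members had an unadjusted p under 0.05. The median log2 fold change was 0.34 for fatty acid and wax genes and -0.22 for sterol genes. The carcinoma of mouse 10 was lowest of its group in 10 of the 18 fatty acid and wax genes. Without that library, which was left out after this was seen, Fads1, Fads2, Scd1 and Soat1 were called higher and Ebp lower, with adjusted p of 0.00515, 0.00365 and 0.0182 for Fads1, Fads2 and Scd1. The calls over all genes rose as well, to 16.9%, so that 5 of 39 members is a lower share than that of all genes. With the mouse as a block, Fads2 was called in addition to Soat1 and Ebp, and 9.85% of all genes were called.

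Genes of the wider pathways were taken from lists that are not members. Of 20 other sterol genes, 2 rose and 7 fell in papilloma vs CHR, where 22.8% of all genes rose and 28.7% fell. In carcinoma vs CHR 2 rose and 7 fell, against 15.1% and 21.4% of all genes. Scap, which encodes the escort of SREBPs, rose by 0.51 ± 0.16 on the log2 scale in papilloma vs CHR (adjusted p = 0.0147), in 6 of 6 mice.

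On the log2(value + 1) scale the largest falls of this list in papilloma vs CHR were those of the cholesterol exporter Abca1, at -2.12 ± 0.38 (adjusted p = 0.000183), and of Nr1h3, which encodes the oxysterol receptor LXR-alpha, at -2.07 ± 0.21 (adjusted p = 5.3e-07). By mean normalised counts Nr1h3 fell 8.04-fold and Abca1 3.94-fold, and Abcg1, another exporter, 4.02-fold. Nr1h3 had 304 to 603 normalised reads in CHR, 28 to 74.5 in PAP and 58.1 to 252 in SCC, and was the only gene of this list called between the lesions (0.85 ± 0.21, adjusted p = 0.0328, 6 of 6 mice). That call was lost without mouse 3, 7 or 8, in limma-voom and in the fit of only the 2 groups. No gene of the table was called in this comparison there.

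Of 25 other fatty acid genes found of 28 listed, 18 fell in papilloma vs CHR and 19 in carcinoma vs CHR, against 28.7% and 21.4% of all genes. None rose, and none was called between the lesions, where 4 had an unadjusted p under 0.05. Fa2h, which hydroxylates the fatty acids of skin sphingolipids, fell by 4.19 on the log2(value + 1) scale and Acacb, the mitochondrial carboxylase, by 3.36 (adjusted p = 1.29e-06 and 3.23e-07), and their means were 47.4-fold and 14.5-fold lower. Thrsp, which encodes the lipogenic protein Spot14, had 108 to 439.7 normalised reads in CHR, 0 to 2.37 in PAP and 1.03 to 26.4 in SCC, with a log2 fold change of -3.02 ± 0.21 on that scale (adjusted p = 3.4e-08), which understates its fall, and no fold is given because the papillomas held so few reads. The highest values of this list in papilloma vs CHR were 0.30 for Agpat2 and -0.01 for Dgat1 (adjusted p = 0.201 and 0.975).

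Markers of several cell types also differed between the groups, in directions that varied by list. All 7 sebaceous gland markers were lower in both lesions, and their normalised reads summed to 18140 to 86436 in CHR, 166 to 3556 in PAP and 142 to 6165 in SCC. Krt79 made up most of the highest sum of each group, with 76079 reads in CHR mouse 10, 3201 in PAP mouse 8 and 5495 in SCC mouse 8. Mc5r, Dgat2l6 and Pnpla5 were at 0 in at least 1 papilloma and 1 carcinoma. In CHR the sum was lowest in mouse 3, which also had the lowest count of Elovl6, Far1, Far2 and Awat2, and highest in mouse 10, which had the highest of the same 4 genes. Of the fatty acid and wax genes, 7 of 18 were lowest and 6 of 18 highest in those mice, 4 of them both, and of the sterol genes 3 of 21 and 3 of 21, 2 of them both. In the lesions no member was both by these sums, whose upper end follows Krt79, and sums without Krt79 were not computed. Awat1 alone had 220.97 to 258.37 reads in SCC mice 2, 3 and 8 and 1.029 to 20.89 in mice 7, 9 and 10. It is the split of Far2 and Elovl3 given above. In PAP it had 82.89 to 174.96 in mice 2, 3, 7 and 8 and 1.321 and 1.029 in mice 9 and 10. In those papillomas Elovl3 was at 0 and Far2 at 6.146 and 5.088. Cidea and Pparg broke this order, with the highest Cidea of PAP in mouse 9 (282.06) and the highest Pparg in mouse 10 (75.46). By the full sums, 6 of 18 fatty acid and wax genes were lowest in the papilloma with the lowest sebaceous sum. In that with the highest sum 2 were highest, and the counts were 3 and 3 in the carcinomas.

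Adipocyte markers fell in 9 of 10 in both lesions, with sums of 6598 to 20544 in CHR, 2132 to 13310.4 in PAP and 1845 to 22709 in SCC, and Adipoq, Plin1, Cfd, Lep, Retn, Cidec and Pck1 were at 0 in some lesions. Most of the lesion sums was Fabp4, the marker that did not fall, and without it the sums of the other 9 were 4152 to 15189.8 in CHR, 344 to 702 in PAP and 483 to 2339 in SCC. Macrophage markers fell in 6 of 6 in both, with sums of 38530 to 60819, 1099.5 to 6650 and 3596 to 54440, and 3 of 6 were higher in SCC than in PAP. Skeletal muscle markers fell in 9 of 9 in PAP and 8 of 9 in SCC, with sums of 383452 to 575256 in CHR, 306 to 28595 in PAP and 411 to 189903 in SCC. Dermal fibroblast markers fell in 4 of 6 in PAP and 1 of 6 in SCC, with sums of 132863 to 298852, 4776 to 160352 and 17028 to 492899.

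Keratinocyte markers, which were present in every library with sums of 247088 to 1246780, rose in 8 of 10 and fell in 1 of 10 in PAP, and rose in 5 and fell in 2 in SCC. Proliferation markers rose in 6 of 6 in both lesions. Whether these markers account for any of the changes of the lipid genes was not tested.

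**Figure D5:**
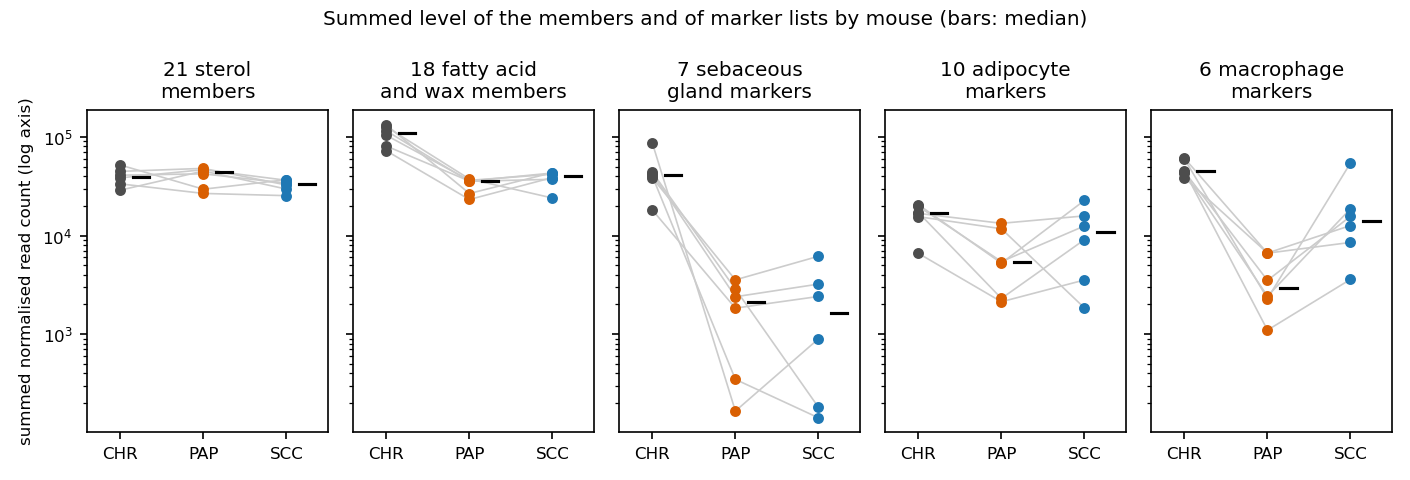
Summed normalised read counts on a log axis for the 21 sterol members, the 18 fatty acid and wax members and 3 marker lists, with 1 point per library, grey lines for a mouse and a black bar for the median. Sterol sums stay between 25386 and 51912 in all groups, fatty acid and wax sums fall from 72338 or more in CHR to at most 43422 in the lesions, and sebaceous sums fall from 18140 or more to at most 6165.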

How the data were processed

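RNA from 18 tissue samples of 6 mice was sequenced. The authors aligned the reads to mm10 with MOSAIK, counted them per gene with HTSeq, scaled the libraries, and deposited a table of 14542 entries that holds whole-number scores, namely DESeq2's variance-stabilised values on a linear scale, on which 0 reads gave 39. The paper also describes a correction of transformed values for experimental batches, and whether the deposited values include it was not stated. Whether reads were counted by strand was not stated either. The 14521 entries with a symbol were tested, and the 21 without one held at most 0.236% of a library.

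Groups followed the sample labels, and mouse numbers are shared between groups because the 3 samples came from the same animal. Each mouse gave 1 sample per group, so p-values rest on the spread between mice within a group. The main fit had no term for the mouse and treated the 3 samples of an animal as independent. With the mouse as a block, the share of all genes called in carcinoma vs papilloma was 9.85%, against 5.58% without it. The members and gene lists were chosen with earlier results of these data known. The test was limma 3.58.1 (R 4.3.3) on log2(value + 1) over all 18 libraries and genes, with Benjamini-Hochberg adjustment and a threshold of 0.05, and it understates the change of low genes. Inverting the transformation gave whole reads for 99.2% of values (96.8% in the lowest library), with scaling factors of 0.835 to 1.18, and from them the normalised read counts, summed levels and RPKM. With a factor over 1 nearly any high value gives a whole read, so that share says little there. For values up to 100, a stricter check, the share was 97.1% or more in every library. No pair of libraries shared more than 2.23% of its values. Python 3.11.15, numpy 2.4.6 and pandas 2.3.3 were used.

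Of 18 pairs of libraries of the same mouse, 9 deviated together with a correlation over 0.1 (range -0.245 to 0.507, median 0.100), and the pairing rests on the animal. Full values were given for the 3 members of each role with the largest fold change in papilloma vs CHR and for members called between the lesions, and Dhcr7, Hmgcs1, Srebf1, Acaca, Scd2, Fads2, Far1 and Dgat2 were described further after their values were seen. Genes named beyond the members were Thrsp and, in each pathway list, the 2 with the highest and the 2 with the lowest fold change in papilloma vs CHR, apart from genes that are not reported here, and they include Nr1h3, which is also the only one called between the lesions. Lists of sebaceous gland, adipocyte, macrophage, skeletal muscle, dermal fibroblast, keratinocyte and proliferation markers were counted. The alternatives were the mouse as a block, limma-voom on recovered reads with and without it, a pseudocount of 10, a filter of 10 reads in 6 libraries, quantile normalisation, centring on keratinocyte markers, only the 2 groups compared, and each mouse left out. Leaving out the papilloma of mouse 2 or the carcinoma of mouse 10 was added after the data were seen. The fits were tested on simulated data.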

Additional observations from a re-analysis of the deposited data

Results flagged for a closer look

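In 3 of 117 groups of 6 samples (39 members in 3 groups), 1 sample lay far from the others by Dixon's criterion, where chance gives about 1 in 20, or 5.85 groups. All 3 were sterol genes in carcinomas. Dhcr7 had 1000.2 normalised reads in the carcinoma of mouse 8, against 669 in the next highest. Lss, which makes lanosterol, had 1095 in the carcinoma of mouse 3, against 1653 in the next lowest. Tm7sf2, a sterol reductase, had 386 in the carcinoma of mouse 2, against 149.7 in the next highest.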

How the results depend on the processing

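The number of members called in papilloma vs CHR was 19, and 14 to 18 when a mouse was left out (sterol 2 to 4, fatty acid and wax 12 to 14). In carcinoma vs CHR it was 15, and 13 to 15 (sterol 2 to 4, fatty acid and wax 11). In carcinoma vs papilloma it was 2, and 0 to 5 (sterol 0 to 1, fatty acid and wax 0 to 4), the 5 being without mouse 10. Without the carcinoma of mouse 10 alone it was 5, with 4 fatty acid and wax genes, where 16.9% of all genes were called. With all libraries, 51.5% of all genes were called in papilloma vs CHR, 36.5% in carcinoma vs CHR and 5.58% in carcinoma vs papilloma. With a mouse left out, the shares were 44.2% to 49.1%, 26.9% to 34.8% and 0 to 14.6%.

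With the replicate block (mouse), sterol calls were 5 in carcinoma vs CHR and fatty acid and wax calls 2 in carcinoma vs papilloma, and no call was lost. Of all genes, 38.4% and 9.85% were called in these comparisons. Limma-voom and the fit of only the 2 groups compared each called 0 members, 0 sterol and 0 fatty acid and wax genes in carcinoma vs papilloma, where 6 and 5 members had an unadjusted p under 0.05, and both called 0 of all 14521 genes, of which 3083 and 2496 had an unadjusted p under 0.05. The fit of the 2 groups, like quantile normalisation, called 5 sterol genes in carcinoma vs CHR. Quantile normalisation called 1 member and 0 sterol genes in carcinoma vs papilloma, with 7 members at an unadjusted p under 0.05.

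Centring on keratinocyte markers moved the median of all genes by -0.84 in papilloma vs CHR, 0.75 in carcinoma vs papilloma and -0.10 in carcinoma vs CHR. It called 31 members lower and none higher in papilloma vs CHR (16 sterol), 10 higher in carcinoma vs papilloma (9 fatty acid and wax) and 9 lower in carcinoma vs CHR (1 sterol), against 58.1% of all genes lower, 42.2% higher and 8.73% lower. Under it, log2 fold changes in papilloma vs CHR turned negative for Ebp (-0.84), Fdps (-0.72), Mvk (-0.70), Nsdhl (-0.78), Sc5d (-0.23), Sqle (-0.31), Idi1 (-0.60), Stard4 (-0.56), Srebf2 (-0.39) and Elovl1 (-0.58), and in carcinoma vs papilloma 24 members changed sign, among them Ebp, which became 0.31. The pseudocount of 10 and the filter on low reads kept these counts within 1.5 times. The cause of these changes was not tested. Genes with few reads, such as Thrsp, Scd3 and Elovl3 in lesions, are limited by depth.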
